A study of Homo sapiens with 6 samples.

Results

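The inhibitor of apoptosis proteins (IAPs) are a family defined by the baculoviral IAP repeat, a zinc-binding fold through which several of them hold caspases or caspase activators. XIAP blocks effector caspases directly, whereas BIRC2 and BIRC3 (cIAP1 and cIAP2) are ubiquitin ligases that sit with TRAF2 at tumor necrosis factor receptors, ubiquitinate RIPK1 and steer signalling towards NF-kB and away from cell death. BIRC3 is itself a well known NF-kB target gene. BIRC5 (survivin) is the odd member of the family: it belongs to the chromosomal passenger complex with Aurora kinase B and is made mainly in dividing cells, peaking at mitosis.

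The genes were chosen by name, as every array feature annotated to BIRC2, BIRC3, BIRC5 or XIAP. Of the 4 genes, 2 were found: BIRC3 with 1 feature (RefSeq transcript NM_001165) and BIRC5 with 57 features, of which 56 carried the transcript NM_001012270 and 1 the transcript NM_001012271. They made up 58 of the 40146 features named for a gene, over 843 genes in all. BIRC2 and XIAP were not analysed here. Outside the rule, the family member BIRC7 (livin) had 75 features and is given for comparison.

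Hep3B cells, a human hepatoma line that lacks p53, were exposed to UV light at 10 J/m2 and total RNA was collected 6 hours later, to be set against RNA of untreated Hep3B cells. Each of 3 biological replicates was hybridized to a splicing-sensitive array with the irradiated RNA in Cy5 (direct arrays) and again with the irradiated RNA in Cy3 (dye-swap arrays), which gave 6 arrays. All values below are log2 ratios of UV over untreated. The authors normalized each array by LOWESS and array medians lay from -0.01 to 0.01, so a ratio is relative to the typical feature. A change in total RNA per cell would not show. A negative value means relatively less of that RNA in the irradiated cells. This sign was taken from the dyes in the labels and from the positive correlation between the columns of both orientations. None of 9 hepatocyte markers sought was on the array, so the cell type could not be checked on these values. In a bulk ratio, fewer cells with a transcript and less transcript per cell cannot be told apart.

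Of 45220 features in the table, the arrays held 36532 to 38392 values each, with 15.1% to 19.2% of features empty. Arrays of the same orientation correlated at 0.836 to 0.943 over features, and arrays of opposite orientation at 0.538 to 0.663, so arrays were more alike within than across orientations. The 2 orientations of a replicate were therefore averaged before testing, and a gene was tested with limma where at least 2 replicates had both. Of 775 genes tested, 556 (71.7%) passed an adjusted p of 0.05, 321 of them lower (41.4%) and 235 higher (30.3%) after UV, and 162 genes (20.9%) also changed by more than 1.3-fold. Without replicate 3 the test called 311 genes.

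BIRC3 had the lowest ratio of any gene on each of the 3 direct arrays. Its single feature read -2.99, -2.51 and -2.77 in replicates 1, 2 and 3 of the direct arrays. On the dye-swap arrays it read -2.23 in replicate 2 and was empty in replicates 1 and 3. All 4 values lay far below 0, and the lone dye-swap value lay above the 3 direct ones.

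In linear terms BIRC3 RNA was 7.94-fold, 5.70-fold and 6.82-fold lower after UV on the direct arrays of replicates 1, 2 and 3. It was 4.69-fold lower on the dye-swap array of replicate 2. These folds are relative to the typical feature of an array and are not amounts per cell. No gene was lower than BIRC3 among the 792, 792 and 787 genes with a value on direct arrays 1, 2 and 3. This rank is not like for like, since BIRC3 is 1 feature and 466 genes are means over 3 or more features. The lowest single features on direct arrays 1, 2 and 3 read -3.28, -2.97 and -3.18, below BIRC3. On dye-swap array 2, 2 of 787 genes were lower, and LHFPL2, a gene also measured by 1 feature, was the lowest at -2.41.

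Only replicate 2 had both orientations, with a mean of -2.37, so BIRC3 could not be tested in the same way as the other genes. On the direct arrays alone the mean was -2.76 (SE 0.10, SD 0.24, n = 3), with an adjusted p of 0.0001174 from limma over 793 genes, of which 43.3% were called lower. It was the lowest gene of that fit, followed by LHFPL2 at -2.62 and by TANK, a TRAF-binding regulator of NF-kB signalling, at -2.23. Fits to all 6 arrays used the 4 values together. With the replicate as a block BIRC3 was at -2.54 (43.2% of genes called lower), and the correlation estimated for the block was negative (-0.51). With a fixed dye term in place of the block BIRC3 was at -2.49 (45.5% of genes called lower). The dye-swap side of both values rests on 1 array, so they are given as effect sizes without a test. A direct-array value alone still carries any dye effect of that feature, and the 1 dye-swap value, although less negative, had the same sign.

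**Figure D1:**
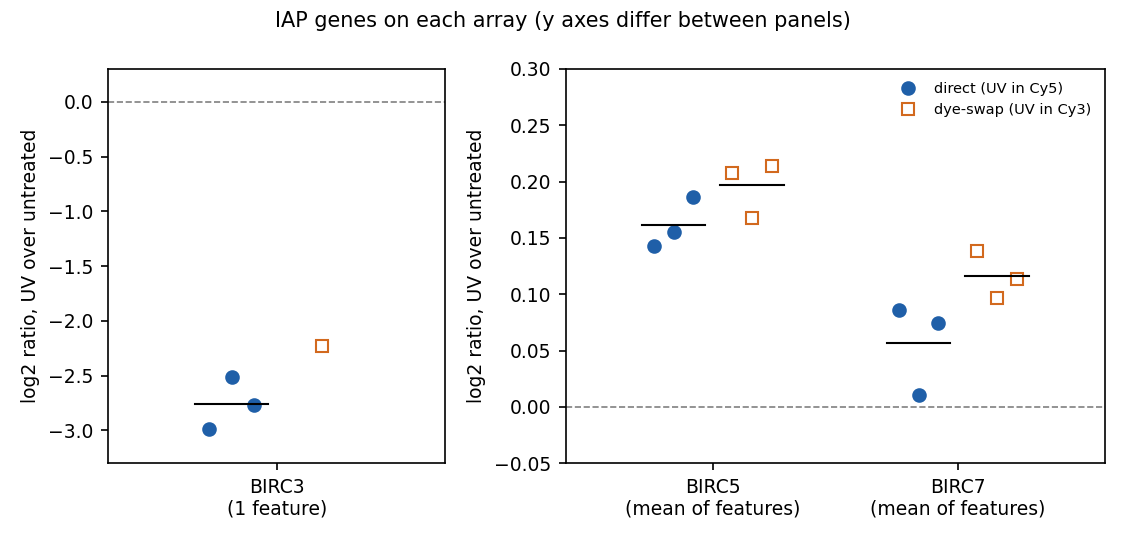
Log2 ratio of UV over untreated (y axis) of BIRC3, BIRC5 and BIRC7 on each array, direct arrays as blue circles and dye-swap arrays as orange squares, in the order of replicates 1 to 3 within each orientation. Black lines are means of an orientation with more than 1 value. BIRC3 lay between -2.99 and -2.23 on the 4 arrays that measured it, whereas BIRC5 lay above 0 on all 6.

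**Figure D2:**
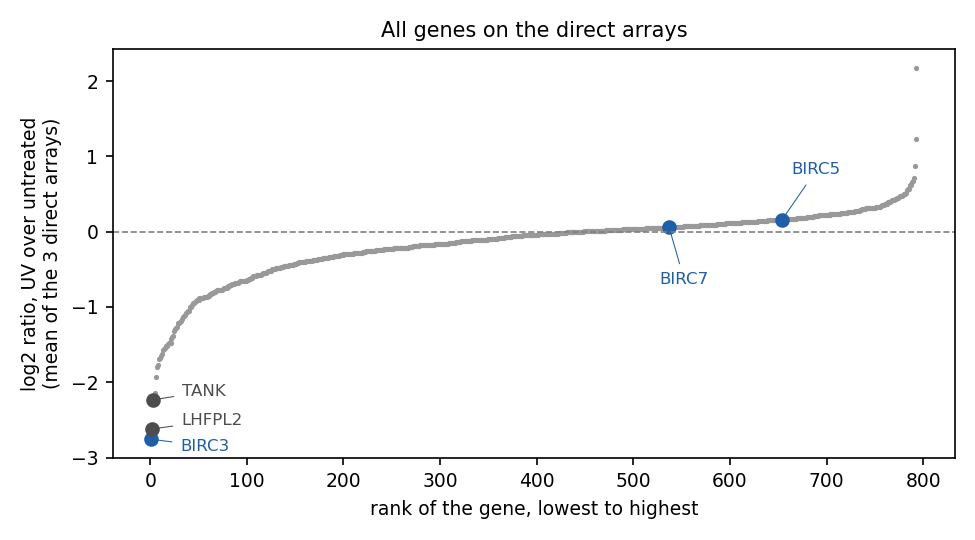
Mean log2 ratio over the 3 direct arrays (y axis) of the 793 genes tested there, ranked from lowest to highest (x axis). BIRC3 stood at the low end at -2.76, next to LHFPL2 and TANK (1 feature each), and BIRC5 and BIRC7 lay slightly above 0.

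The upstream sequence of BIRC3 is shown because BIRC3 stands at the end of an NF-kB pathway whose other genes were measured on the same arrays. It was read from the RefSeq promoter table (GRCh38.p14, plus strand, chr11:102317234-102317483) and ends at the base before the transcription start. Capitals mark the 2 matches to the NF-kB (kappaB) motif, searched on both strands, and no other motif was searched.
BIRC3 upstream: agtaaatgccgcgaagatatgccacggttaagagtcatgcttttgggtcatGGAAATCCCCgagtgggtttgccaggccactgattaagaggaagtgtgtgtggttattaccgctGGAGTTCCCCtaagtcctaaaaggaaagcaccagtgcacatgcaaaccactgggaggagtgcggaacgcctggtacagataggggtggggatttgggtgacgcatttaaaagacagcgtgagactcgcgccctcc
The matches began 199 and 135 bases before the start. Of 35116 promoter windows of 300 bases in the same table, 14.0% held 1 or more matches and 2.42% held 2 or more. Among 20 promoters found for the genes of TNF receptor and NF-kB signalling tested here, 6 held a match: TNFAIP3 with 2, and NFKBIA, NFKB1, TANK, TRAF3 and CFLAR with 1 each. BCL10 and TNF held none, and neither did the members BIRC2 and XIAP. No promoter window was available for BIRC5, so that member was not searched. Split by the array result given below, matches stood in 6 of 13 promoters of genes called lower. They stood in 0 of 4 of genes called higher and 0 of 3 of genes not called. These numbers were not tested. No window was found for IKBKB (called lower), CD40 (called higher) or TRADD (not called), and 1 window was read per gene. A match describes letters in this window and is not evidence that a factor bound there.

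Survivin moved little and in the other direction. The mean over the BIRC5 features was 0.14, 0.16 and 0.19 on direct arrays 1, 2 and 3, and 0.21, 0.17 and 0.21 on dye-swap arrays 1, 2 and 3. Every array lay above 0, and the orientations overlapped. The mean of the 3 replicates was 0.18 (SE 0.018, SD 0.019, n = 3), a 1.13-fold higher level after UV relative to the typical feature. Its adjusted p from limma was 0.0019 over all 775 genes tested, of which 30.3% were called higher. This was 1 of the many small shifts that passed the test, under the 1.3-fold limit used in the study, and 32 of the 466 tested genes with 3 or more features had a higher mean. Median ratios of all tested genes and of those with 3 or more features were -0.03 and 0.0057.

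BIRC3 and BIRC5 changed in opposite directions. On the direct arrays both were measured in every replicate, and BIRC3 lay far below BIRC5. The log2 difference, BIRC3 minus BIRC5, was -2.92 (SE 0.08, n = 3). This comparison was chosen after the values were seen, so no p-value is given. The direct arrays alone also leave in any dye effect of the BIRC3 feature. Of 792 genes each set against BIRC5 on these arrays, 67.6% were called lower than BIRC5.

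BIRC7, the third IAP gene with values, stayed close to 0. Of its 75 features, 67 to 73 had a value on an array. They averaged 0.09, 0.01 and 0.07 on direct arrays 1, 2 and 3, and 0.14, 0.10 and 0.11 on dye-swap arrays 1, 2 and 3. The mean was 0.09 (SE 0.020, n = 3, limma adjusted p = 0.0208). It lay below that of BIRC5 (BIRC7 minus BIRC5 of -0.09, SE 0.024), a comparison chosen after the values were seen. In that comparison 77.9% of 774 genes were called lower than BIRC5. On the direct arrays alone the BIRC7 ratio itself did not pass the test (0.06, adjusted p = 0.1458), nor did it without replicate 1 (0.07, adjusted p = 0.1592) or without replicate 3 (0.08, adjusted p = 0.1499). A single BIRC7 feature read 2.55 on dye-swap array 1, the highest value of that gene. That feature had too few paired values to be tested alone, but it entered the mean of 0.14 on that array, where the median over features was 0.10.

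The 57 features of BIRC5 all report on 1 gene and share its RNA, so they are not independent of each other. Their exon or junction positions are not given in the sources used here. Of them 56 had a value on some array, 51 on all 6, and 55 could be tested. After UV 43 of the 55 features were higher and 0 were lower, while 54.5% of all 34301 named features tested were called in either direction and 26.3% were called higher. The 55 ratios ran from -0.21 to 0.36 with a median of 0.16, and 49 were above 0. None changed by more than 1.3-fold, while 13.8% of all features passed the test with such a change. Without replicate 1, 25 of 53 features were called, and without replicate 3, 24 of 52, all of them higher. Above 0 on all 6 arrays were 33 of the 51 complete features, against 17.3% of all complete features, and 0 lay below 0 on all 6, against 23.3%.

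The highest BIRC5 feature was number 3521, which read 0.21, 0.38 and 0.31 on direct arrays 1, 2 and 3 and 0.39, 0.47 and 0.41 on dye-swap arrays 1, 2 and 3. Its mean was 0.36 (SE 0.036, n = 3, adjusted p = 0.0004317), and all 6 arrays lay above 0. The lowest was number 34012, which read -0.74 and 0.12 on direct arrays 1 and 3 and -0.03, -0.14 and -0.18 on dye-swap arrays 1, 2 and 3, with direct array 2 empty. Its mean of -0.21 (SE 0.089, n = 2) did not pass the test (adjusted p = 0.1079), and its 2 direct values had opposite signs.

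**Figure D3:**
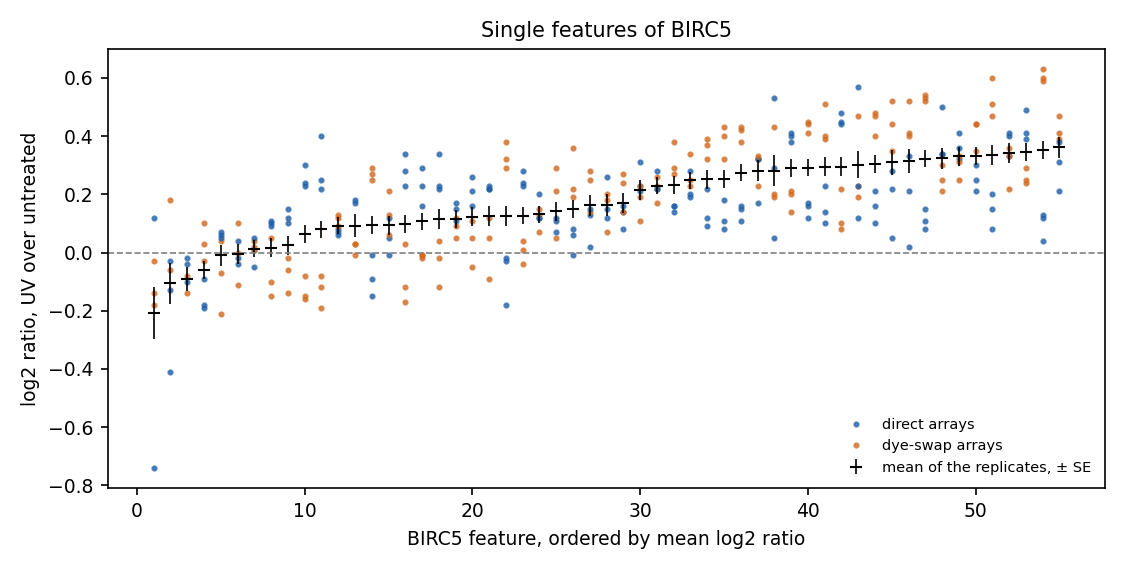
Log2 ratio of UV over untreated (y axis) of the 55 tested BIRC5 features, ordered by their mean (x axis), with each direct array as a blue point, each dye-swap array as an orange point and the mean over replicates with its SE in black. Most means lay between 0 and 0.36, and for many features blue and orange points formed separate groups.

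Splicing of BIRC5 is known to give several isoforms, and the array was built to detect such shifts. Departure of a feature from its gene was measured as the splicing index, the difference between its log2 ratio and the mean of all other features of that gene, and called at an adjusted p under 0.05 with a change over 1.4-fold. None of the 55 BIRC5 features was called, against 3.92% of all features in genes with 3 or more. At the adjusted p alone, without the fold limit, 33 BIRC5 features departed from the rest of the gene (14 lower and 19 higher), against 49.5% of all features.

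The 3 lowest indices belonged to features 34012, 1201 and 30488, at -0.40, -0.28 and -0.28. All 3 lacked a value on 1 array and rested on 2 replicates. The 3 highest belonged to features 3521, 844 and 8146, at 0.19, 0.18 and 0.17. Feature 8146 was above 0 on every array, with 0.39, 0.49 and 0.41 on direct arrays 1, 2 and 3 and 0.25, 0.24 and 0.29 on dye-swap arrays 1, 2 and 3. The index of feature 844 was set by 1 orientation: the feature read 0.60, 0.59 and 0.63 on dye-swap arrays 1, 2 and 3, but only 0.13, 0.04 and 0.12 on direct arrays 1, 2 and 3.

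Feature 844 was not alone in this. The dye component of a feature was taken as the direct minus the dye-swap ratio of a replicate, divided by 2, and it passed the test in 28 of the 55 BIRC5 features (48.6% of all features). In 11 of them the direct arrays were higher and in 17 the dye-swap arrays were. Among the 51 complete features, all dye-swap values lay above all direct values in 19 (26.4% of all complete features) and all direct values above all dye-swap values in 15 (30.9%). Opposite signs, with every direct value above 0 and every dye-swap value below 0, were found in 4 (9.8% of all complete features), and the reverse in 2 (7.67%). Over these features the direct and dye-swap means had a Pearson r of 0.014 (n = 51, features of 1 gene on the same 6 arrays), and the median of this r over the genes with 3 or more features was 0.15.

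Averaged over the gene, these opposite differences nearly cancelled. The dye component of the BIRC5 gene mean was -0.018 (SE 0.013, n = 3) and did not pass the test (adjusted p = 0.302), while 51.9% of all genes did. The order of BIRC5 features in 1 orientation was thus not found again in the other, whereas the small positive gene mean was present in both: the 3 direct arrays averaged 0.16, and the 3 dye-swap arrays 0.20.

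**Figure D4:**
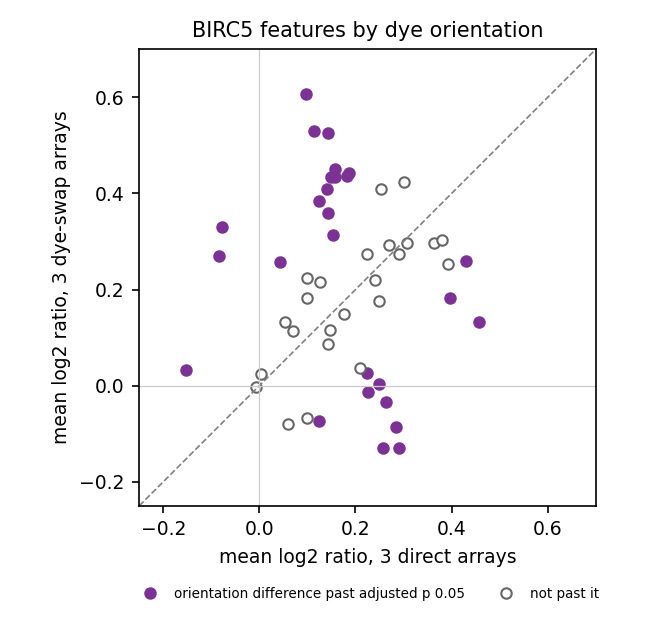
Mean log2 ratio over the 3 dye-swap arrays (y axis) against the mean over the 3 direct arrays (x axis) for the 51 BIRC5 features with a value on all 6 arrays. Filled points had a dye component past an adjusted p of 0.05, and the dashed line marks equal values. The points did not follow the line (r = 0.014), and most lay above 0 on both axes.

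Genes known to act with the IAPs were read from lists chosen with earlier results of these data known. Of the antagonists and binding partners, 4 of 10 sought genes were measured and all 4 were called lower (41.4% of all genes were), with a median of -0.16 against -0.03 for all tested genes. They were RIPK1, the kinase that cIAPs ubiquitinate (-0.31, SE 0.025), TRAF1 (-0.17, SE 0.032) and TRAF2 (-0.15, SE 0.026), the adaptors that hold cIAPs at the receptor, and DIABLO (SMAC), which displaces caspases from IAPs on release from mitochondria (-0.09, SE 0.022). Adjusted p-values from limma were 0.0011, 0.0118, 0.0099 and 0.0259 for these 4 genes in that order. TRAF1, with 1 feature, read -0.45, -0.27 and -0.35 on direct arrays 1, 2 and 3 but 0.03, 0.09 and -0.06 on dye-swap arrays 1, 2 and 3, so its direct values lay below 0 and its dye-swap values on both sides of 0. Without replicate 3, 1 of the 4, RIPK1, was still called lower (-0.28, adjusted p = 0.0163), and DIABLO was not called without replicate 1 either (-0.11, adjusted p = 0.0682).

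Of the caspases and the apoptosome genes, 9 of 13 were tested: 3 were lower (41.4% of all genes), 1 was higher (30.3% of all genes) and 5 did not pass the test, with a list median of 0.00. Both shares were below those over all genes. APAF1, the scaffold of the apoptosome, was the lowest at -0.66 (SE 0.074, adjusted p = 0.0026), followed by CASP2 at -0.20 (SE 0.016, adjusted p = 0.0011). CASP9, the initiator caspase that XIAP binds, was the 1 gene called higher, at 0.09 (SE 0.018, adjusted p = 0.0130), and was not called without replicate 1 (0.09, adjusted p = 0.1103) or without replicate 3 (0.08, adjusted p = 0.1283). Without replicate 2 the test called 2 genes of this list higher. CYCS, cytochrome c, was at 0.09 (SE 0.054, adjusted p = 0.222), at 0.15 without replicate 2 (adjusted p = 0.0254) and at 0.028 without replicate 3 (adjusted p = 0.6962).

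The genes of TNF receptor and NF-kB signalling stood nearest to BIRC3 in role. Of 23 tested, 14 were lower (41.4% of all genes), 5 were higher (30.3% of all genes) and 4 did not pass the test, and the list median was -0.12 against -0.03 for all tested genes. TANK (1 feature) read -2.42, -2.06 and -2.22 on direct arrays 1, 2 and 3 and -1.84, -1.63 and -1.94 on dye-swap arrays 1, 2 and 3. Its mean was -2.02 (SE 0.064, adjusted p = 0.0001301). BCL10 (1 feature), an adaptor that activates the IkB kinases, averaged -1.51 (SE 0.019, adjusted p = 4.075e-05).

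At the other end of that list were CD40, a TNF receptor family member, at 0.13 (SE 0.021, adjusted p = 0.0076), and TNF itself, the ligand, at 0.45 (SE 0.026, adjusted p = 0.0004797). TNF read 0.49, 0.37 and 0.50 on direct arrays 1, 2 and 3 and 0.44, 0.41 and 0.48 on dye-swap arrays 1, 2 and 3. TNF was the only gene of the list that was higher by more than 1.3-fold, while 6 were lower by more than that. In the same irradiated cells the RNA ratio of TNF was thus above 0, while BIRC3 read far below 0 on each array that measured it. TNF protein was not measured here. Counts of this list also changed with replicate 3, without which 9 genes were lower and 1 was higher. Without replicate 1, 1 was higher, and without replicate 2, 7 were. CD40 was not called without replicate 1 (0.12, adjusted p = 0.0552) or without replicate 3 (0.12, adjusted p = 0.0807).

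**Figure D5:**
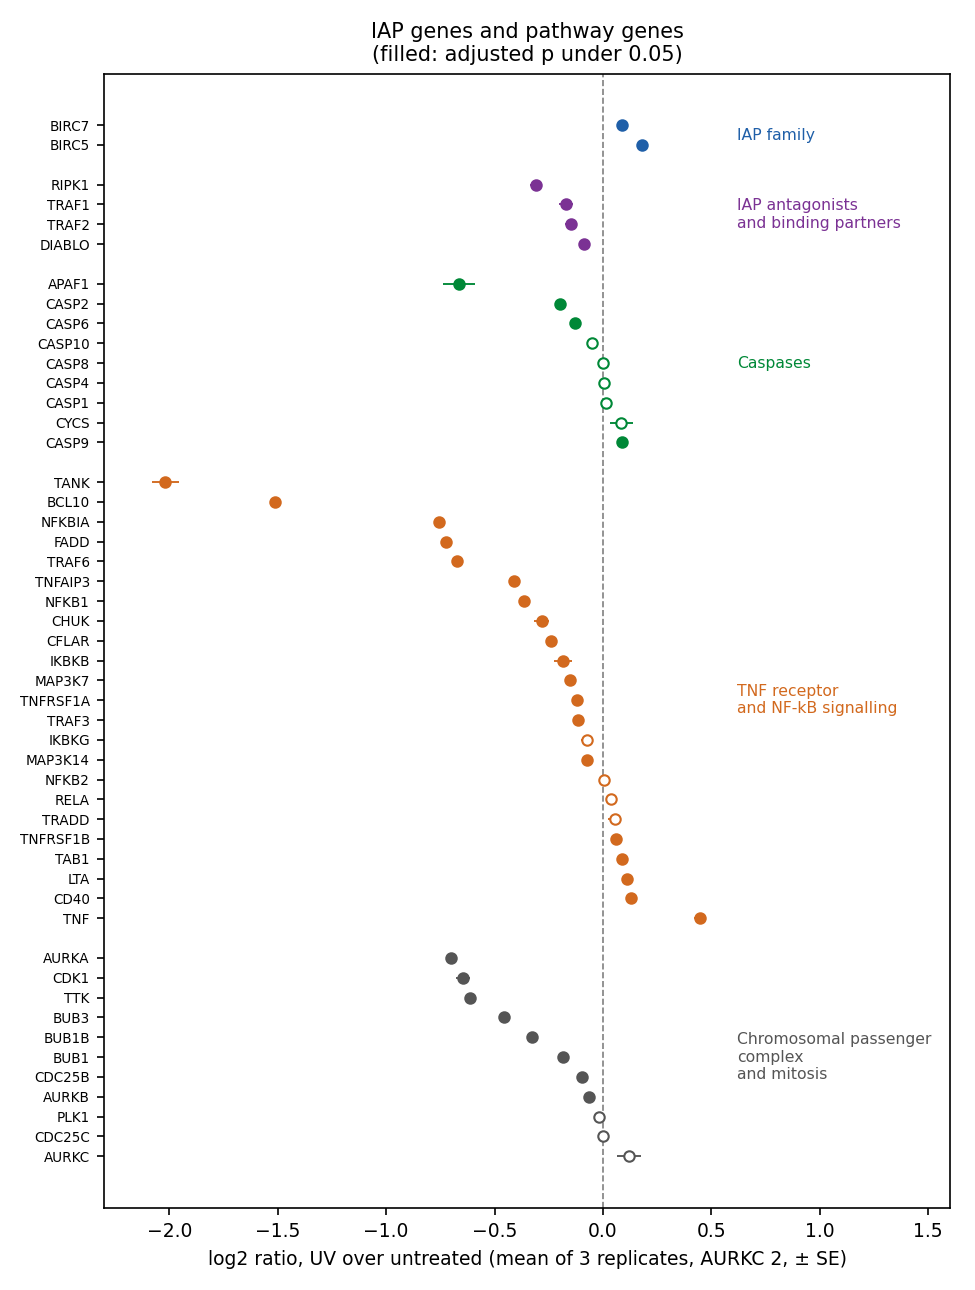
Mean log2 ratio of UV over untreated (x axis) with its SE for the tested genes of 5 lists (rows), filled where the adjusted p was under 0.05. BIRC3 and CCNB1 are not drawn, since they could not be tested in both orientations. The lowest genes were TANK at -2.02 and BCL10 at -1.51, and BIRC5 at 0.18 lay to the right of all 11 tested mitotic genes.

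Survivin is usually read together with the other genes of mitosis. Here its mean ratio was above that of each of the 11 tested. AURKC, with 2 replicates, lay above BIRC5 on direct array 1 (0.16 against 0.14) and dye-swap array 1 (0.26 against 0.21). AURKC lay below BIRC5 on direct arrays 2 and 3 and dye-swap array 2. Of these 11 genes of the chromosomal passenger complex and mitosis, 8 were lower (41.4% of all genes) and 0 were higher (30.3% of all genes), with a list median of -0.18 (5 were lower without replicate 3). AURKA, the centrosomal Aurora kinase, averaged -0.70 (SE 0.022, adjusted p = 0.0001301) and CDK1, the kinase that drives entry into mitosis, -0.64 (SE 0.034, adjusted p = 0.0003746). The highest were CDC25C, a phosphatase that activates CDK1, at -8.781e-05 (adjusted p = 0.9976), and AURKC (1 feature) at 0.12 (SE 0.055, n = 2, adjusted p = 0.138).

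Each gene was also set against BIRC5 within a replicate. That comparison was chosen after the values were seen, so single differences are given without a p-value. Of the 11 mitotic genes, 10 were lower than BIRC5 at an adjusted p under 0.05 and AURKC was not, while 77.9% of all 774 genes were called lower than BIRC5. For AURKA the difference, AURKA minus BIRC5, was -0.88 (SE 0.028). AURKB, the catalytic partner of survivin, was named outside the fixed rule after its values were seen. It averaged -0.06 (SE 0.017, limma adjusted p = 0.0292) and lay below BIRC5 (AURKB minus BIRC5 of -0.24, SE 0.023). AURKB read 0.04, 0.01 and 0.01 on direct arrays 1, 2 and 3 but -0.14, -0.16 and -0.14 on dye-swap arrays 1, 2 and 3. Its sign thus differed between the orientations, while it lay below BIRC5 on all 6 arrays. On the direct arrays AURKB minus BIRC5 was -0.14 (SE 0.040). The AURKB ratio itself was not called without replicate 1 (-0.07, adjusted p = 0.169) or without replicate 3 (-0.06, adjusted p = 0.1926).

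Among genes with 3 or more features, the nearest to BIRC3 on its 4 arrays was MCL1, an anti-apoptotic BCL2 family gene, with a root mean square difference of 1.39 log2 units, followed by RBM7 (1.55), a subunit of the nuclear exosome targeting complex, and PRP4K (1.61), a splicing kinase. All 3 were much less reduced than BIRC3, with means of -1.24, -1.06 and -1.07. Genes with 1 feature, as BIRC3 is, were not candidates. On the direct arrays alone the single-feature genes LHFPL2 (-2.62) and TANK (-2.23) lay nearer to BIRC3 (-2.76). The nearest to BIRC5 over 6 arrays were SPTAN1 (spectrin, 0.022), MCC (0.039) and DNMT3B (a DNA methyltransferase, 0.040), with gene means of 0.18, 0.17 and 0.15. Likeness here means closeness of array ratios over 466 and 465 candidate genes, and nothing more.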

How the data were processed

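The authors hybridized irradiated and untreated RNA of 3 replicates in both dye orientations, used normexp background correction and LOWESS normalization, and deposited log2 ratios to 2 decimals, 1 column per array. The sources used here state neither why cells were empty nor the genome build of the array, so no feature coordinates are given. Array medians lay from -0.01 to 0.01, and no further scaling was applied. Scanner signal was not used here. Features were named through the platform annotation, updated with RefSeq symbols (GRCh38.p14). Gene ratios are means over features.

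Direct and dye-swap ratios of a replicate were averaged, and replicates were fitted with limma 3.58.1 in R 4.3.3 (intercept alone, two-sided, Benjamini-Hochberg over all genes or features tested). The SE comes from the moderated variance and covers how far the 3 replicates varied and leaves out variation among features. The number of arrays limits the precision. The scripts were tested on simulated data. Members and gene lists were chosen with earlier results of these data known. Named genes were the members, the extreme BIRC5 features, the 2 lowest and 2 highest genes of each list and the 3 genes nearest to each member. The comparison of genes with BIRC5 was chosen after the values were seen. Replicate numbers come from the titles. Deviations of direct and dye-swap arrays with the same number correlated at -0.01, 0.45 and 0.10 for replicates 1, 2 and 3. The unlike-numbered pair of direct 1 and dye-swap 3 reached 0.425, so the pairing in the titles was borne out for replicate 2 but is uncertain for replicates 1 and 3. With all 6 values present, the pairing affects the SE of a mean but not the mean. Figures were drawn with matplotlib 3.10.9.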

Additional observations from a re-analysis of the deposited data

Results flagged for a closer look

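In 6 of the 51 complete features of BIRC5 every direct array lay on one side of 0 and every dye-swap array on the other, so the dye orientations gave opposite signs for the same RNA. Direct arrays were above 0 and dye-swap arrays below 0 in features 10491, 34750, 19836 and 10259, with dye components (direct minus dye-swap, divided by 2) of 0.098, 0.19, 0.21 and 0.12. Direct arrays were below 0 and dye-swap arrays above 0 in features 1183 and 9855, with dye components of -0.18 and -0.20. Over all complete features 9.8% showed the first pattern and 7.67% the second. Since these 6 were picked for their signs, the dye components are given as values with no test. Feature 19836, for example, read 0.25, 0.22 and 0.40 on direct arrays 1, 2 and 3 and -0.12, -0.08 and -0.19 on dye-swap arrays 1, 2 and 3. Their means over both orientations ran from 0.025 to 0.13.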

How the results depend on the processing

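The BIRC5 gene mean stayed positive and past the adjusted p in every fit run (0.16 to 0.20), from 0.17 to 0.19 when 1 replicate was left out, and failed only the 1.3-fold limit of the methods (0.18). With the replicate block, BIRC5 was at 0.18 and BIRC3 at -2.54. That block changed no call of BIRC5. Because the numbers were borne out by the values mainly for replicate 2 and the correlation estimated for the block was negative (-0.51), the block is only an alternative. BIRC3 was -2.37 in replicate 2, -2.76 on the direct arrays alone and -2.71 where 1 orientation of a replicate was allowed, an alternative chosen after the data were seen. It had no value without replicate 2 or when all 6 arrays were required, and its range without replicate 1 or 3 was the single value -2.37. BIRC2 and XIAP had no values in any fit. Without 1 replicate, BIRC5 features called were 24 to 40 of 52 or 53 (43 of 55 with all), the dye component of BIRC5 was -0.023 to -0.010, splicing index calls were 0 and genes called were 311 to 637 (556 with all). The 1.3-fold limit left 0 BIRC5 features and, with the p limit of the methods, 162 genes, and requiring 3 or more features left 366 of 466 genes. The index without its fold limit called 33 BIRC5 features. Signs turned for AURKB (0.021) and the index of feature 844 (-0.066) on the direct arrays alone, for TRAF1 (0.020) on the dye-swap arrays alone, and for CDC25C, which was near 0 throughout (0.0038 after scaling, 0.035 on the direct arrays alone, -0.012 to 0.0071 without 1 replicate). Of 327 values of 24 other named genes, 289 kept direction and call, 28 lost and 4 gained the call and 6 changed sign. Under the limits of the methods, lower genes numbered 0 of the IAP partners, 1 of the caspases (0 higher), 6 of NF-kB signalling (1 higher) and 4 of mitosis. On the dye-swap arrays alone 3 NF-kB genes were higher, and 1 mitotic gene was higher there and in both fits to 6 arrays. Dim features could not be filtered, and BIRC3 rests on 4 readings of 1 feature.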
